A study of Mus musculus with 24 samples.

Results

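Messenger RNA of 10 chaperone genes was followed across the hippocampus of 24 adult mice. The genes were the small heat shock proteins *Hspb8* and *Hspb1*, the HSP70 chaperones *Hspa1a*, *Hspa1b*, *Hspa8* and *Hspa5*, the HSP90 chaperone *Hsp90aa1*, the HSP110 protein *Hsph1* and the co-chaperones *Dnajb1* and *Bag3*. They were taken by symbol, all 10 were found among the 36605 genes of the count table, and all 10 passed the filter on low counts in every comparison. The study asked how loss of the transcription factor EGR1 in the neural lineage, and each of the alleles used to obtain it, altered hippocampal gene expression in females and males. Each of the 8 groups held 3 mice. Egr1wtNesCre- mice carried neither allele and are called wild type here. Egr1fNesCre- mice, the Egr1cKO control, carried *Egr1* between loxP sites (a floxed *Egr1*) without Cre, on the C57BL/6N *Egr1* tm1a background. Egr1wtNesCre+ mice, the Cre control, carried Cre under the Nestin promoter, from the strain B6.Cg-Tg(Nes-Cre)1Kln/J, with an unmodified *Egr1*. Egr1fNesCre+ mice carried both and are the Egr1cKO. The Nestin promoter is active in neural precursors, so deletion of *Egr1* was directed to cells descended from them. Which cell types kept *Egr1* cannot be read from these bulk libraries. The mouse numbers in the labels form separate ranges for Egr1wt and Egr1f mice, so the floxed allele and the series of mice cannot be told apart.

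Heat shock proteins bind unfolded or misfolded proteins. HSP70 chaperones cycle on and off their clients by hydrolysing ATP, a cycle started by J-domain proteins such as *Dnajb1* and reset by nucleotide exchange factors such as *Hsph1* and *Bag3*. HSP90 acts on clients passed on from HSP70, and small heat shock proteins hold unfolded proteins without using ATP. In cytosolic stress the factor HSF1 binds repeated GAA and TTC units before many of these genes, whereas *Hspa5*, also called BiP, is the HSP70 of the endoplasmic reticulum and is induced there by unfolded proteins through another element.

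The stretches before 4 genes are shown as examples that carry letters which these factors, or EGR1 itself, are known to bind. Start sites and sequences are those of RefSeq on GRCm38.p6, in which 8 of the 10 members had an entry, with 10 windows of 250 bases before to 50 bases after a start. No entry was found for *Hspa8* and *Hsp90aa1*. Capitals mark the EGR1 motif in *Hspb8*, GCG and GGGCG with 1 free base between them, and a pair of heat shock units, GAA and TTC in either order with 2 bases between them, in the others. The last base of each line is the base before the start.
Hspb8, chr5:116422865-116423114, minus strand: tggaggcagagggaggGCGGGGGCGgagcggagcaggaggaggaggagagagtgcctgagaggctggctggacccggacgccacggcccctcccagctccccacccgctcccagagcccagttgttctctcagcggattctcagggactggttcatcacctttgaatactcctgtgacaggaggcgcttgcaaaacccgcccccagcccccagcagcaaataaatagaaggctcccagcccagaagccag
Hspb1, chr5:135887769-135887918, plus strand: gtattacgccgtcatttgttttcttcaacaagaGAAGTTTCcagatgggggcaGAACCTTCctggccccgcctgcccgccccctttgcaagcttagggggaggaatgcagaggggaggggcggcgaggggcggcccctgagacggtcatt
Hspa1a, chr17:34972157-34972306, minus strand: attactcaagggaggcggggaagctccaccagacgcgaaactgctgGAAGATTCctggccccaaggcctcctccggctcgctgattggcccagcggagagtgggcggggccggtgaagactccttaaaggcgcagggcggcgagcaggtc
Hspa1b, chr17:34959239-34959388, minus strand: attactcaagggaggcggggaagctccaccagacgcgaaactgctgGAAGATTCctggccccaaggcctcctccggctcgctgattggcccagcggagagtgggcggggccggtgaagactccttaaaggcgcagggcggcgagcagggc
The *Hspa1a* and *Hspa1b* stretches were identical at 149 of 150 positions. Their transcripts were alike too, since 47.1% of all 100-base stretches of *Hspa1a* occurred in *Hspa1b* and 49.9% of those of *Hspa1b* in *Hspa1a*. Reads from such stretches could be split between the 2 genes or left uncounted, so the counts and levels of both are uncertain. The paper does not state how such reads were counted. Counted from the start, with -1 the base before it, the matches began at -234 in *Hspb8*, at -117 and -97 in *Hspb1* and at -104 in *Hspa1a* and *Hspa1b*. Pairs of units also lay at +3 of *Hspb8*, at +43 of *Bag3* and before *Hsph1*. There, one began at -33 from the upstream and -54 from the downstream of its 2 starts. Neither window of *Dnajb1* held one. A pair of units occurred in 15.1% of all 32851 windows and the EGR1 motif in 5.55%.

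Longer elements were found in *Hsph1* and *Hspa5*, and they are shown because both are rare among all windows. In *Hsph1* a run of 3 alternating heat shock units began at +16 from the downstream of its 2 starts and +37 from the upstream one. It contained pairs of units that were counted in the search above. Such a run occurred in 0.603% of all windows. In *Hspa5* the ER stress element, CCAAT followed after 9 bases by CCACG, began at -65 and occurred in 0.119% of all windows. A TATA box, TATAAA, was searched as well, occurred in 13.6% of all windows and was not among the letters of any member's window. All motifs were searched on both strands, and a match describes letters only.
Hsph1, chr5:149636280-149636308, minus strand: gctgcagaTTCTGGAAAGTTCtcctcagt
Hspa5, chr2:34772020-34772048, plus strand: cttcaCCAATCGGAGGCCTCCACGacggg

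Total counts ran from 18025168 to 34955004 per mouse. Markers of hippocampal neurons, 8 of 8 found, summed to between 5633 and 8847 CPM (counts scaled to equal library sizes) in every mouse, while those of pituitary endocrine cells, 7 of 8 found, summed to between 1.00 and 3.84 CPM, so the label "endocrine" for the cell type did not match its markers and hippocampus did. *Egr1* stood at 10.2, 9.49 and 8.52 CPM in the female and at 6.82, 7.83 and 4.86 CPM in the male Egr1cKO mice, against 47.7 to 149 CPM in the other 18 mice. From the lists of cell type markers and response genes, edgeR called *Slc2a1* and *Npas4* for the floxed allele alone in females, *Aqp4*, *Mobp* and *Ttr* for the Egr1cKO against the floxed control in females, *Slc2a1*, *Hbb-bs*, *Tsc22d3* and *Per1* for the Egr1cKO against the Cre control in females, and *Aqp4* for the Nestin-Cre term. These are bulk libraries, in which a different number of cells of a type and a different amount of RNA per cell cannot be told apart.

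The 10 genes spanned more than 2 orders of magnitude in level per exonic length. *Hspa8*, the constitutive cytosolic HSP70, led at 324 CPM per kb, followed by *Hsp90aa1* at 236, *Hspa5* at 49.9, *Hsph1* at 43.2, *Dnajb1* at 13.7, *Hspb8* at 6.17, *Hspa1b* at 4.92, *Hspb1* at 4.06, *Bag3* at 3.82 and *Hspa1a* at 1.91 CPM per kb as means over 24 mice. Neighbours in this order stood in it in all 24 mice for *Hspa8* over *Hsp90aa1*, *Hsp90aa1* over *Hspa5*, *Hsph1* over *Dnajb1*, *Dnajb1* over *Hspb8* and *Bag3* over *Hspa1a*. The order of *Hspa5* over *Hsph1* held in 19, of *Hspb8* over *Hspa1b* in 21, of *Hspa1b* over *Hspb1* in 17 and of *Hspb1* over *Bag3* in 10 of 24 mice, so *Hspb1* and *Bag3* did not differ beyond their spread. The ratio of the highest to the lowest mouse was 1.28 for *Hsp90aa1*, 1.40 for *Hspa8*, 1.44 for *Hsph1*, 1.61 for *Dnajb1*, 2.09 for *Hspb8*, 2.13 for *Bag3*, 2.28 for *Hspa5*, 2.30 for *Hspa1a*, 2.60 for *Hspa1b* and 4.09 for *Hspb1*. A few mice set the extremes. The third female Egr1cKO mouse was the highest of all 24 for 6 members, namely *Hspa1a*, *Hspa1b*, *Hsp90aa1*, *Hsph1*, *Dnajb1* and *Bag3*, and the second female Egr1fNesCre- mouse was the highest for *Hspb1*, *Hspa8* and *Hspa5*.

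**Figure D1:**
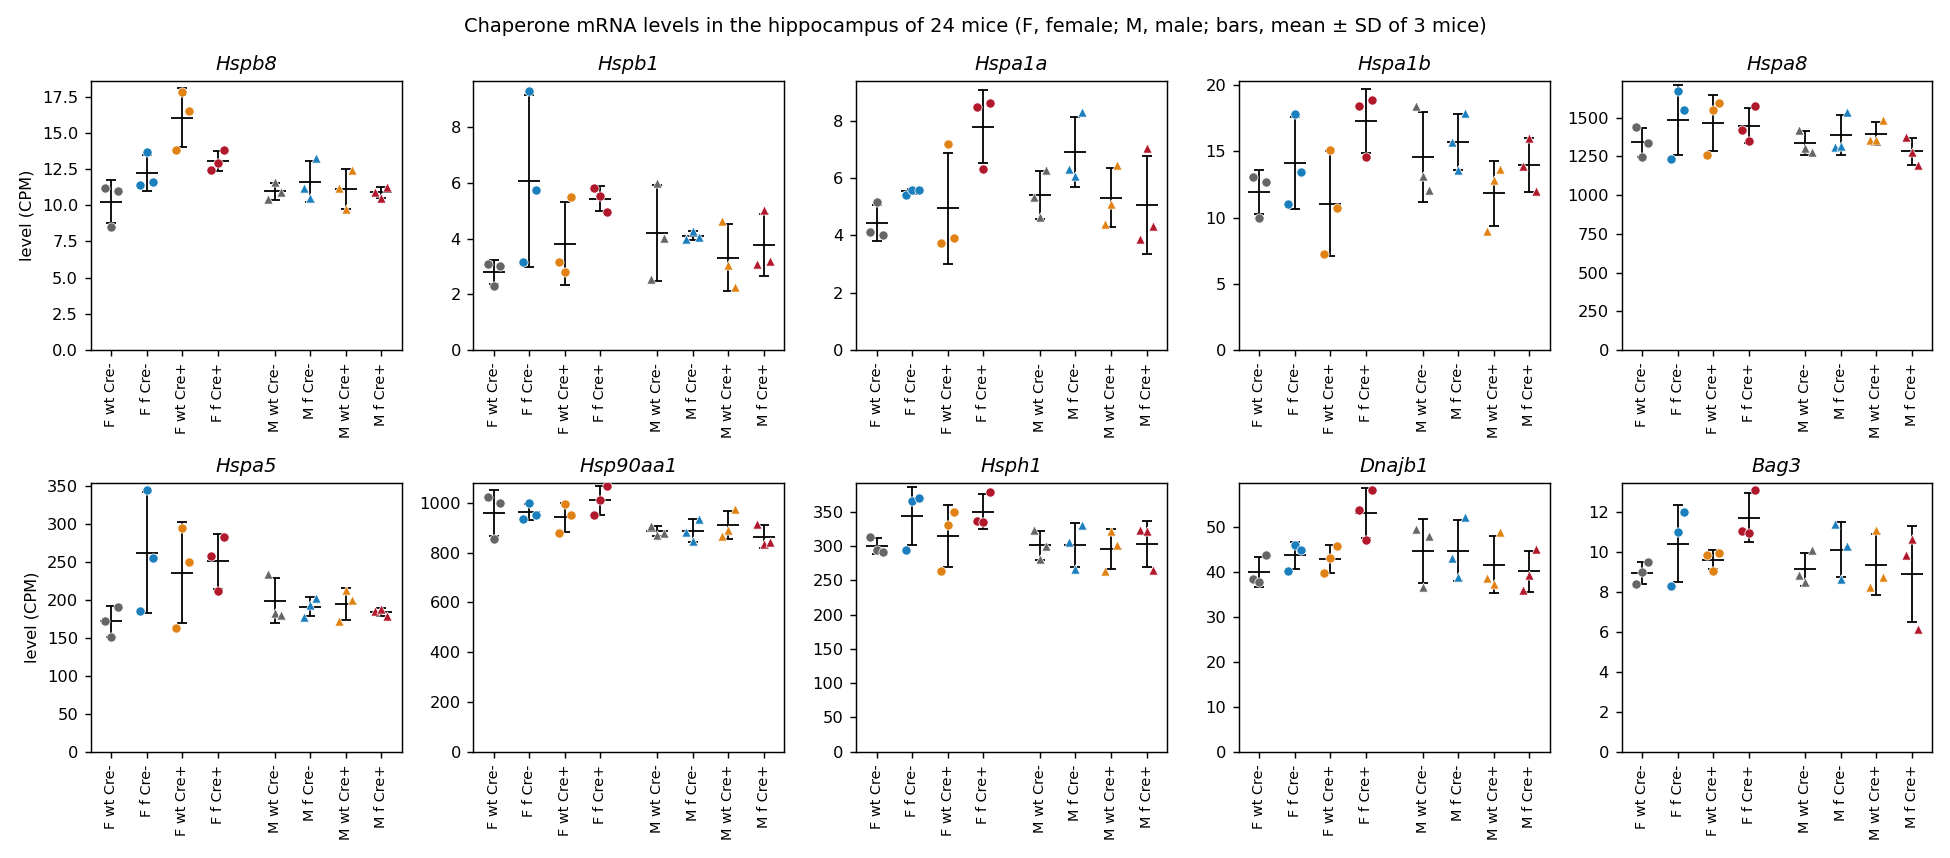
Level of each of the 10 chaperone genes in CPM in each mouse, in 1 panel per gene with the 8 groups along the x axis, 1 point per mouse and bars for the mean ± SD of 3 mice. The female Egr1wtNesCre+ mice sit highest for *Hspb8*, between 13.8 and 17.8 CPM, and the female Egr1cKO mice sit above all other females for *Dnajb1*, between 47.1 and 58.2 CPM.

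No member passed the main test in any of 18 comparisons. By edgeR's quasi-likelihood test, with Benjamini-Hochberg adjustment over all genes tested, calls needed an adjusted p no higher than 0.05 and, between groups, a fold change of 1.2 or more. Nestin-Cre alone called 0 members beside 0% of all genes in females and 0% in males, and the floxed allele alone called 0 members beside 0.0113% in females and 0% in males. The Egr1cKO against the floxed control called 0 members beside 0.288% of all genes in females and 0.00569% in males, and against the Cre control 0 members beside 1.81% in females and 0.00575% in males. Between the sexes, 0 members were called beside 0.0399% of genes in wild type, 0.0341% in the floxed control, 0.0348% in the Cre control and 0.0635% in the Egr1cKO. The 6 Egr1cKO against the other 18 mice called 0 members beside 0.00543% of genes. In a model of all 24 mice with floxP, Nestin-Cre, their interaction and sex, the shares of genes called were 0.00507%, 0.0456%, 0.00507% and 0.0658%, and 0 members were among them. The test of whether Nestin-Cre acted unlike in the 2 sexes among Egr1wt mice called 0% of genes and 0 members. DESeq2 called 0 members too, beside 57 genes for Nestin-Cre alone in females and 35 for the floxed allele alone in females. However, its independent filtering gave no adjusted p to 5 members for Nestin-Cre alone in females (*Hspb8*, *Hspb1*, *Hspa1a*, *Hspa1b* and *Bag3*), nor to these and *Dnajb1* in the interaction.

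Unadjusted values were unevenly spread over the comparisons. An unadjusted p under 0.05 was reached by 2 of 10 members for Nestin-Cre alone in females, where 7.45% of all genes reached it, and by 2 for the floxed allele alone in females, where 8.93% did. For the Egr1cKO in females it was 2 members against the floxed control, beside 18.4% of genes, and 3 against the Cre control, beside 17.5%. It was 0 members in each of the 4 comparisons of genotypes within males, beside 1.84% to 3.04% of genes, and 0 between the sexes in wild type, beside 3.37%. Between the sexes it was 1 member in the floxed control, 1 in the Cre control and 4 in the Egr1cKO, beside 2.98%, 2.06% and 7.42% of genes. Over the model terms it was 3 members for floxP, 1 for Nestin-Cre, 1 for their interaction and 4 for sex, beside 5.50%, 4.29%, 18.4% and 5.79% of genes, 1 for Nestin-Cre by sex, beside 2.17%, and 0 for the Egr1cKO against the other 18 mice, beside 15.1%. Comparisons that share a group share its mice.

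**Figure D2:**
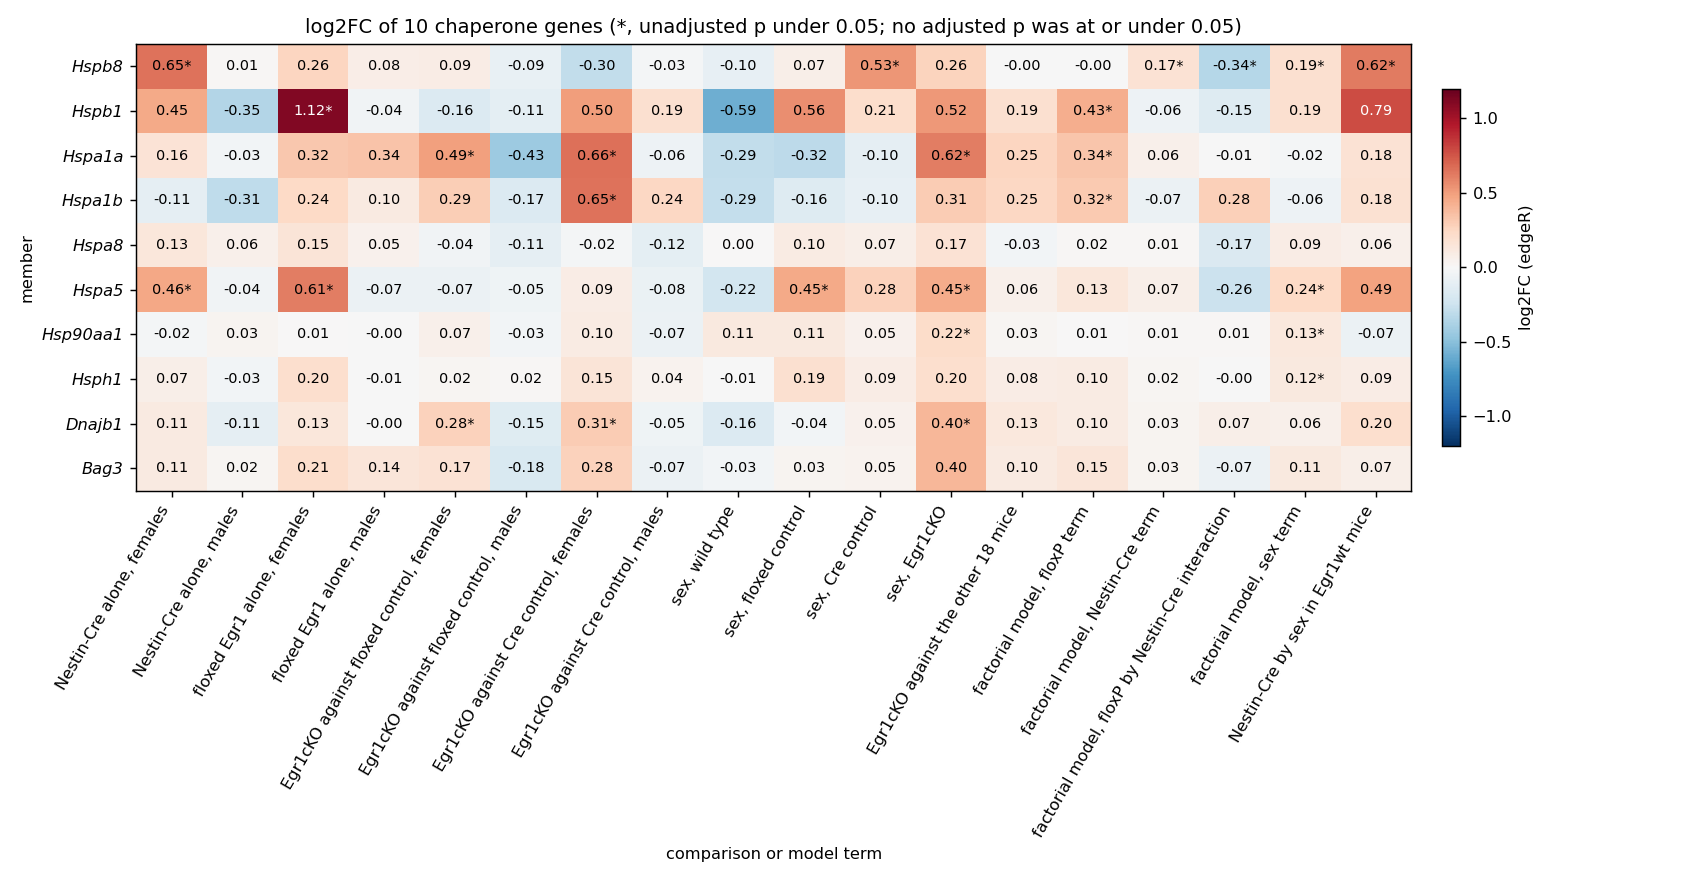
Log2 fold change of each of the 10 genes (rows) in each of the 18 comparisons (columns), in colour on a scale centred at 0 and printed in each cell, with an asterisk where the unadjusted edgeR p was under 0.05. The columns of the male genotype comparisons stay near 0 for most genes, and all 10 values for females against males in the Egr1cKO are above 0.

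*Hspb8* is a small heat shock protein that joins *Bag3* and HSP70 in delivering misfolded proteins to autophagy. It lies on chr5:116408491-116422864 of GRCm38 on the minus strand (ENSMUSG00000041548). In females its level was 11.2, 8.53 and 11.0 CPM in wild type, 11.4, 13.7 and 11.6 CPM in Egr1fNesCre-, 13.8, 17.8 and 16.5 CPM in Egr1wtNesCre+ and 12.5, 12.9 and 13.8 CPM in Egr1cKO mice. In males it was 10.4, 11.6 and 10.9 CPM in wild type, 11.2, 10.5 and 13.3 CPM in Egr1fNesCre-, 11.2, 9.73 and 12.4 CPM in Egr1wtNesCre+ and 10.9, 10.5 and 11.3 CPM in Egr1cKO mice. All 3 female Cre control mice were above all wild-type females and above all Cre control males, and by a narrow margin above all Egr1cKO females. The male groups overlapped one another.

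For Nestin-Cre alone in females the log2FC of *Hspb8* was 0.65 ± 0.16 (SE, n = 3 per group), a fold of 1.57, with an edgeR p of 0.0021 and an adjusted p of 0.587. The paper, with DESeq2, did list *Hspb8* as upregulated in this comparison at the same fold, and described such p-values as close to its threshold. DESeq2 without its independent filtering, added after the data were seen, gave a log2FC of 0.65 with an adjusted p of 0.252, and called 28 genes. Without the filter on low counts the edgeR adjusted p of *Hspb8* was 0.0379, and 236 genes in place of 0 were called. With any 1 of the 6 mice left out the log2FC lay between 0.54 and 0.74. In males the log2FC was 0.01 ± 0.15, with an edgeR p of 0.932, and the difference between the sexes in the effect of Nestin-Cre was 0.62 ± 0.21, with an edgeR p of 0.0107 and an adjusted p of 1.00. Females over males in the Cre control gave 0.53 ± 0.17 with an edgeR adjusted p of 1.00. In females the log2FC of the Egr1cKO against the Cre control was -0.30 ± 0.14, with an edgeR p of 0.056 and an adjusted p of 0.297, and the interaction of floxP and Nestin-Cre was -0.34 ± 0.16 with an adjusted p of 0.247. Of all 19742 genes, 6.25% had 3 Cre control females above 3 wild-type females, 3.9% had 3 Cre control females above 3 Cre control males and 11% had 3 Egr1cKO females below 3 Cre control females. *Hspb8* was the 1 member among each of these. The sum of the other small heat shock proteins, 5 of 5 found and mostly *Cryab*, lay apart in these comparisons too. It was 63.8 to 84.0 CPM in the Cre control females, 52.2 to 59.4 CPM in wild-type and 53.8 to 59.1 CPM in Egr1cKO females. In the Cre control males this sum was 48.8 to 63.6 CPM. Over 24 mice its correlation with *Hspb8* was 0.48.

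Library totals and choroid plexus markers also lay apart between the same female groups, while markers of hippocampal neurons overlapped narrowly. Library totals were 18702206 to 19938139 counts in the Cre control and 24257816 to 25335139 in wild type. Choroid plexus markers, 8 of 8 found and none at 0, summed to between 55.0 and 2060 CPM in the Cre control, with a median of 61.1 CPM. In wild type they summed to between 36.9 and 45.3 CPM. Markers of hippocampal neurons summed to between 5633 and 7295 CPM against 7252 and 8847 CPM. Across all 24 mice the correlation of *Hspb8* with these 3 measures was -0.17, 0.09 and -0.38, and their part in the result was not tested.

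*Hspb1*, a small heat shock protein that also binds actin filaments, lies on chr5:135887919-135889563 on the plus strand (ENSMUSG00000004951). In females it stood at 3.08, 2.29 and 3.03 CPM in wild type, 3.15, 9.30 and 5.75 CPM in Egr1fNesCre-, 3.17, 2.79 and 5.51 CPM in Egr1wtNesCre+ and 5.83, 5.52 and 4.96 CPM in Egr1cKO mice. Male values were 2.57, 6.02 and 4.02 CPM, 3.98, 4.28 and 4.05 CPM, 4.64, 3.04 and 2.27 CPM, and 3.09, 5.04 and 3.19 CPM in the same order of genotypes. The floxed control females were all above the wild-type females, the lowest of them by a small margin, and were spread over a wider range than any other group. The log2FC for the floxed allele alone in females was 1.12 ± 0.34, a fold of 2.17, with an edgeR p of 0.0059 and an adjusted p of 0.526. With the first floxed control female left out it was 1.43 with an edgeR adjusted p of 0.0130, without the second, who had 9.30 CPM, it was 0.66 with an adjusted p of 0.956, and without the filter on low counts it was 1.11 with an adjusted p of 0.00447. In males the value was -0.04. The floxP term over all mice was 0.43 ± 0.19 with an edgeR adjusted p of 0.892. Endothelial markers, 7 of 7 found and none at 0, summed to between 197 and 217 CPM in the floxed control females. In wild-type females they summed to between 122 and 176 CPM. Across the 24 mice their sum had a correlation of 0.58 with *Hspb1*. *Slc2a1*, itself called in this comparison, had the highest median of these markers, 61.0 CPM. Oligodendrocyte markers lay apart too, at 5058 to 5948 against 4287 to 4788 CPM. Genes induced by neuronal activity stood at 341 to 430 against 487 to 583 CPM. Other small heat shock proteins stood at 65.5 to 78.3 against 52.2 to 59.4 CPM. The correlations of these sums with *Hspb1* were -0.01, -0.02 and 0.20. The part of these lists in the result was not tested.

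*Hspa1a* and *Hspa1b* are the stress-inducible cytosolic HSP70 genes and lie side by side on chr17:34969190-34972156 and chr17:34956436-34959238 on the minus strand (ENSMUSG00000091971 and ENSMUSG00000090877). *Hspa1a* shares 564 exonic bases with the opposite-strand gene *Gm20481*, and the libraries were not stranded. In females *Hspa1a* stood at 4.10, 5.16 and 4.02 CPM in wild type, 5.42, 5.59 and 5.59 CPM in Egr1fNesCre-, 3.74, 7.17 and 3.90 CPM in Egr1wtNesCre+ and 8.46, 6.31 and 8.61 CPM in Egr1cKO mice. Male values were 5.33, 4.63 and 6.29 CPM, 6.31, 6.08 and 8.31 CPM, 4.41, 5.08 and 6.44 CPM, and 3.87, 7.03 and 4.31 CPM in that order. The Egr1cKO females were all above the floxed control females, which were all above the wild-type females and all below the floxed control males.

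For *Hspa1a* the Egr1cKO in females gave a log2FC of 0.49 ± 0.18 against the floxed control, with an edgeR p of 0.0173 and an adjusted p of 0.182, and 0.66 ± 0.27 against the Cre control, with an adjusted p of 0.245. In males the same comparisons gave -0.43 and -0.06. Females over males in the Egr1cKO gave 0.62 ± 0.25 with an edgeR adjusted p of 0.624, and the floxP term 0.34 ± 0.14 with an adjusted p of 0.892. *Hspa1b* stood at 13.1, 9.99 and 12.7 CPM, 11.0, 17.8 and 13.4 CPM, 7.25, 15.1 and 10.7 CPM, and 18.4, 14.5 and 18.9 CPM in females of these genotypes. The males had 18.4, 13.1 and 12.1 CPM, 15.7, 13.6 and 17.9 CPM, 9.01, 12.8 and 13.6 CPM, and 13.9, 16.0 and 12.0 CPM. Its groups overlapped in all 12 comparisons of 3 against 3 mice. Its log2FC for the Egr1cKO against the Cre control in females was 0.65 ± 0.23, with an edgeR p of 0.0187 and an adjusted p of 0.183 (0.00484 without the filter on low counts), and in males 0.24. With 1 female left out this log2FC lay between 0.42 and 0.95 for *Hspa1b* and between 0.50 and 1.03 for *Hspa1a*, highest for both without the second Cre control female. Its floxP term was 0.32 ± 0.12 with an edgeR p of 0.0108 and an adjusted p of 0.886. Genes induced by glucocorticoids, 9 of 9 found and none at 0, summed to 541 to 758 CPM in the Egr1cKO females. In the Cre control females they summed to 334 to 466 CPM. Over 24 mice their sum had a correlation of 0.73 with *Hspa1b* and 0.55 with *Hspa1a*. Other lists lay apart too, given in the same order of groups. Neuron markers summed to 7699 to 8796 against 5633 to 7295 CPM, and astrocyte markers to 5506 to 5564 against 4315 to 4762 CPM. Endothelial markers summed to 254 to 273 against 132 to 232 CPM, and blood markers to 29.2 to 47.6 against 57.9 to 79.5 CPM. Correlations of these sums were 0.50, 0.16, 0.05 and -0.25 with *Hspa1b* and 0.32, 0.21, 0.18 and -0.31 with *Hspa1a*. The part of these lists in the result was not tested.

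*Hspa8* supplies most of the cytosolic HSP70 of unstressed neurons and lies on chr9:40800984-40810087 on the plus strand (ENSMUSG00000015656), with the small nucleolar RNAs *Snord14c*, *Snord14d* and *Snord14e* inside it. Its level in females was 1438, 1249 and 1333 CPM in wild type, 1236, 1672 and 1547 CPM in Egr1fNesCre-, 1257, 1546 and 1592 CPM in Egr1wtNesCre+ and 1420, 1350 and 1572 CPM in Egr1cKO mice. In males it was 1422, 1305 and 1275 CPM, 1312, 1316 and 1534 CPM, 1353, 1352 and 1482 CPM, and 1373, 1276 and 1196 CPM. All groups overlapped within each sex, and no comparison reached an unadjusted p of 0.05. The lowest was for females over males in the Egr1cKO, a log2FC of 0.17 with an edgeR p of 0.099.

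*Hspa5* lies on chr2:34771970-34777547 on the plus strand (ENSMUSG00000026864). In females it stood at 173, 151 and 191 CPM in wild type, 186, 344 and 255 CPM in Egr1fNesCre-, 163, 295 and 249 CPM in Egr1wtNesCre+ and 257, 211 and 283 CPM in Egr1cKO mice. The males had 233, 183 and 180.1 CPM, 177, 193 and 202 CPM, 172, 213 and 199 CPM, and 186, 187 and 178 CPM. In each of the female single-allele groups 1 mouse lay among the wild-type values and the other two above them. The Egr1cKO females were all above the Egr1cKO males, whose 3 values were within 10 CPM of each other.

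The log2FC of *Hspa5* in females was 0.61 ± 0.17 for the floxed allele alone, with an edgeR p of 0.0039 and an adjusted p of 0.495, and 0.46 ± 0.18 for Nestin-Cre alone, with an adjusted p of 0.641. Both comparisons used the same 3 wild-type females. In males these values were -0.07 and -0.04. Females over males gave 0.45 ± 0.17 in the floxed control and 0.45 ± 0.11 in the Egr1cKO, with edgeR p-values of 0.022 and 0.0024 and an adjusted p of 0.566 in the latter, but -0.22 in wild type. Without the filter on low counts *Hspa5* was called in all 4 of these female comparisons, with edgeR adjusted p-values of 5.49e-07, 0.00292, 0.0329 and 0.00532 in the order given. The values also turned on single mice. Without the first floxed control female its log2FC for the floxed allele was 0.81 with an edgeR adjusted p of 0.00739, and without the first Cre control female its log2FC for Nestin-Cre was 0.66 with an adjusted p of 0.0385. Without the second floxed control female, the highest of all mice, the former was 0.36 with an edgeR adjusted p of 0.956, and the difference between the sexes in the floxed control was 0.21. Without the second Cre control female the value for Nestin-Cre was 0.27 with an edgeR adjusted p of 0.713.

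*Hsp90aa1*, the inducible cytosolic HSP90, lies on chr12:110690605-110702728 on the minus strand (ENSMUSG00000021270). In females it stood at 1026, 855 and 999 CPM in wild type, 938, 1001 and 951 CPM in Egr1fNesCre-, 879, 994 and 953 CPM in Egr1wtNesCre+ and 951, 1012 and 1068 CPM in Egr1cKO mice. In males it stood at 909, 870.4 and 881 CPM, 883, 847 and 936 CPM, 867, 890.2 and 976 CPM, and 917, 833 and 844 CPM. Females were all above males in the floxed control and in the Egr1cKO and overlapped them in the other genotypes. The sex term was 0.13 ± 0.04 on the log2 scale, with an edgeR p of 0.0037 and an adjusted p of 0.716, and within the Egr1cKO females over males gave 0.22 ± 0.09. *Hsph1*, which exchanges the nucleotide of HSP70, lies on chr5:149614287-149636376 on the minus strand (ENSMUSG00000029657). In females it stood at 314, 295 and 291 CPM, 294, 366 and 369.8 CPM, 263, 329.9 and 350.1 CPM, and 336, 335 and 379 CPM. In males it stood at 323, 281 and 300.1 CPM, 305, 267 and 331 CPM, 264, 322 and 302 CPM, and 324, 322 and 265 CPM. Its male groups overlapped, and the Egr1cKO females were all above the Egr1cKO males. Its sex term was 0.12 ± 0.06 with an edgeR adjusted p of 0.854, and without the first floxed control female the floxed allele alone gave a log2FC of 0.29 with an adjusted p of 0.0341.

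*Dnajb1*, the J-domain partner of stress-inducible HSP70, lies on chr8:83608193-83612653 on the plus strand (ENSMUSG00000005483). In females it stood at 38.4, 37.7 and 43.7 CPM in wild type, 40.3, 46.0 and 44.9 CPM in Egr1fNesCre-, 39.7, 43.1 and 45.9 CPM in Egr1wtNesCre+ and 53.9, 47.1 and 58.2 CPM in Egr1cKO mice. In males it stood at 49.5, 36.6 and 48.0 CPM, 43.2, 38.9 and 52.3 CPM, 38.7, 37.3 and 48.9 CPM, and 36.1, 39.3 and 45.1 CPM. The 3 Egr1cKO females were above all other females and above the Egr1cKO males. In females the log2FC of the Egr1cKO was 0.28 ± 0.10 against the floxed control, with an edgeR adjusted p of 0.181, and 0.31 ± 0.10 against the Cre control, with an adjusted p of 0.166. In males these values were -0.15 and -0.05. Females over males in the Egr1cKO gave 0.40 ± 0.12, with an edgeR p of 0.0057 and an adjusted p of 0.566.

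*Bag3*, which links HSP70 to *Hspb8*, lies on chr7:128523616-128546981 on the plus strand (ENSMUSG00000030847). In females it stood at 8.40, 9.03 and 9.51 CPM, 8.29, 11.0 and 12.0 CPM, 9.89, 9.07 and 9.97 CPM, and 11.0, 11.0 and 13.1 CPM. In males it stood at 8.87, 8.51 and 10.1 CPM, 11.4, 8.66 and 10.3 CPM, 8.28, 11.1 and 8.75 CPM, and 9.85, 10.7 and 6.18 CPM. The Egr1cKO females were above the Cre control females and above the Egr1cKO males. No comparison of *Bag3* reached an unadjusted p of 0.05, and the log2FC for females over males in the Egr1cKO was 0.40 ± 0.21 with an edgeR p of 0.083.

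The counts of groups without overlap were read against all 19742 genes kept. In females wild-type mice lay below all floxed control mice for *Hspb8*, *Hspb1* and *Hspa1a*, as for 6.7% of all genes. The Egr1cKO females lay above all floxed control females for *Hspa1a* and *Dnajb1*, as for 10.8% of all genes, and above all Cre control females for *Dnajb1* and *Bag3*, as for 11.8%. In the floxed control, females were all above males for *Hsp90aa1*, as for 4.19% of all genes, and all below for *Hspa1a*, as for 3.81%. In the Egr1cKO, females were all above males for 6 of 10 members (*Hspb8*, *Hspa5*, *Hsp90aa1*, *Hsph1*, *Dnajb1* and *Bag3*), as for 6.8% of all genes. Endothelial markers, 7 of 7 found, summed to between 254 and 273 CPM in the Egr1cKO females and between 209 and 217 CPM in the Egr1cKO males. Blood markers, 5 of 5 found, summed to between 29.2 and 47.6 CPM and between 50.3 and 66.8 CPM. Astrocyte markers, 7 of 7 found, overlapped, at 5506 to 5564 CPM and 3960 to 5562 CPM, with the other female groups at 5320 CPM or less. Genes induced by neuronal activity, 8 of 8 found, summed to between 477 and 515 CPM and between 214 and 449 CPM. Over 24 mice their r with the members ran from -0.27 for *Hspa5* to 0.42 for *Dnajb1*. No gene of these lists was at 0, and their part in the result was not tested. The median log2FC over the 10 members for females over males was 0.35 in the Egr1cKO, with 10 of 10 above 0, 0.08 in the floxed control, with 7 above 0, 0.06 in the Cre control, with 8 above 0, and -0.13 in wild type, with 2 above 0. The median over all genes tested was between -0.01 and 0.00 in each. Of 63 further chaperone genes tested in the Egr1cKO, 53 had a log2FC above 0, against 23 of 62 in wild type. The members share mice and vary together, so these counts are not counts of independent genes.

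The members varied together from mouse to mouse. Over 24 mice all 45 pairs of members had a positive correlation of log2 CPM, with a median Pearson r of 0.47 and a range of 0.12 to 0.82. By permutation, with Benjamini-Hochberg adjustment over the 45 pairs, 26 pairs had an adjusted p of at most 0.05, and 22 did by Spearman's rho. Taken as deviations from the 8 group means, an alternative added after the data were seen, 41 pairs were positive and 14 passed. The median r was 0.30 in the 12 Egr1wt mice, with 34 pairs positive, and 0.64 in the 12 Egr1f mice, with 45 positive. *Hspa5* passed with 8 of 9 partners, *Hspa8* and *Hsph1* with 7, and *Dnajb1* with 6. *Hspa1b*, *Hsp90aa1* and *Bag3* passed with 5, *Hspa1a* with 4, *Hspb8* with 3 and *Hspb1* with 2. Against all 19741 other genes kept, *Hspb8*, *Hspa5*, *Hsph1*, *Hspa8* and *Hspa1b* had median r values between -0.02 and 0.01. The 95th percentile of r lay between 0.41 and 0.50, so high values were not confined to chaperones. How many pairs of all genes would pass was not counted, so the counts of passing pairs are a description.

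**Figure D3:**
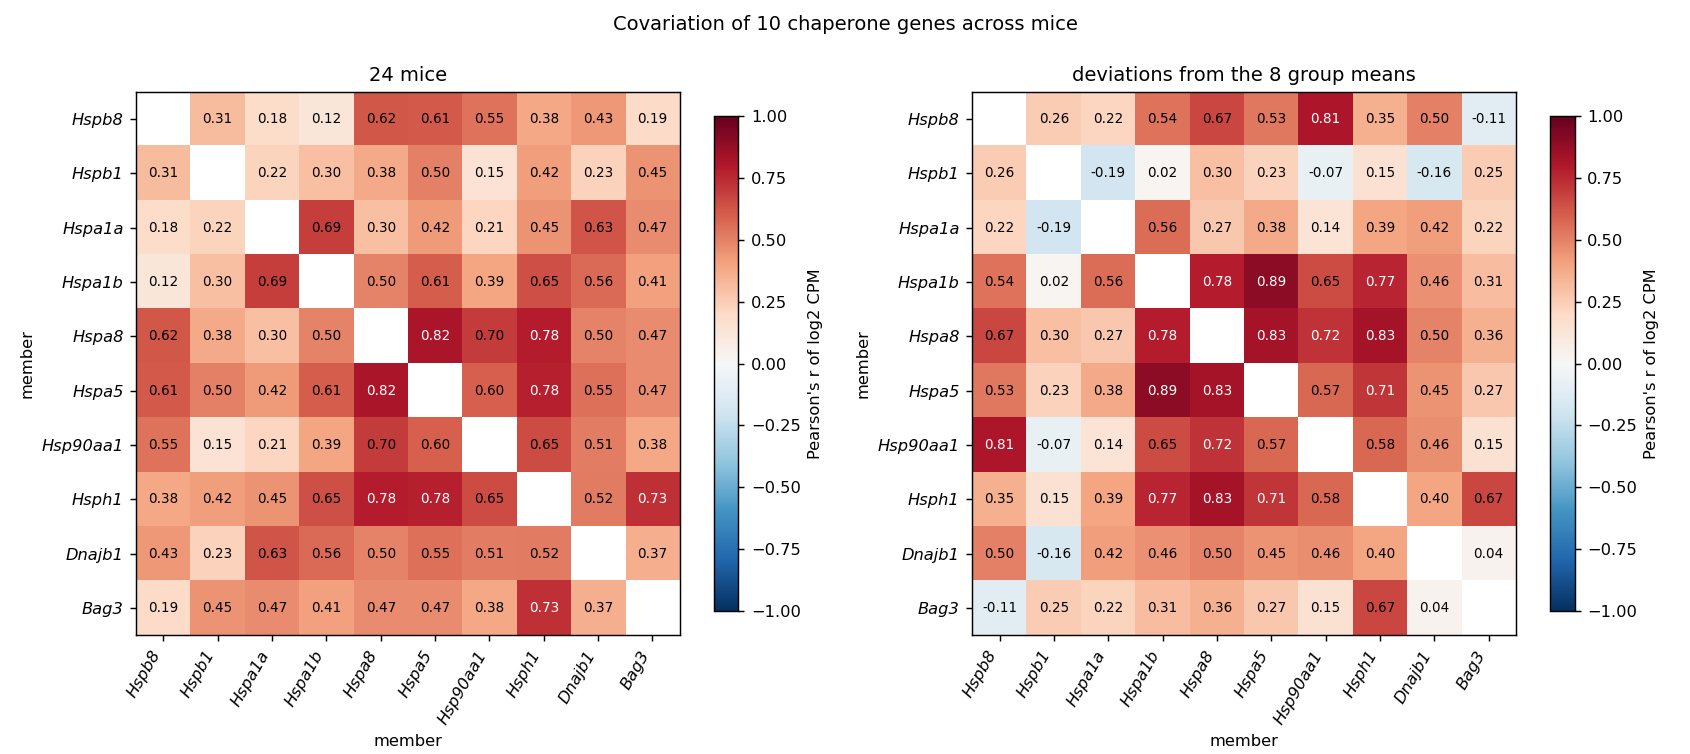
Pearson's r of log2 CPM for each pair of the 10 genes, over 24 mice in the left panel and as deviations from the 8 group means in the right panel, on a colour scale from -1 to 1. *Hspa8*, *Hspa5* and *Hsph1* form the strongest block, with r between 0.78 and 0.82 on the left, and *Hspb8* has its highest value on the right, 0.81, with *Hsp90aa1*.

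The strongest pair joined the main HSP70 of the cytosol and that of the endoplasmic reticulum, *Hspa8* and *Hspa5*, with r = 0.82 and rho = 0.75. It was 0.75 without the 2 mice farthest from the median of either gene and 0.83 within groups. *Hspa8* with *Hsph1* and *Hspa5* with *Hsph1* both had an r of 0.78, *Hsph1* with *Bag3* 0.73 and *Hspa8* with *Hsp90aa1* 0.70. *Hspa1a* with *Hspa1b*, whose reads could be shared or left uncounted, had 0.69. *Hspa1b* with *Hspa5* had 0.61 over all mice and 0.89 within groups.

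*Hspb8* was compared with each of the other 9 members, with p adjusted over these 9 relations. Its Pearson r was 0.62 with *Hspa8* (permutation p = 0.00081, adjusted 0.00661), 0.61 with *Hspa5* (p = 0.00147, adjusted 0.00661) and 0.55 with *Hsp90aa1* (p = 0.00518, adjusted 0.0155). For the others it was 0.43 with *Dnajb1*, 0.38 with *Hsph1*, 0.31 with *Hspb1*, 0.19 with its partner *Bag3*, 0.18 with *Hspa1a* and 0.12 with *Hspa1b*, and none of these 6 passed. By rank 0 of 9 relations passed, with a rho of 0.50 for *Hspa8* (permutation adjusted p = 0.0625), 0.44 for *Hspa5* (adjusted 0.0765) and 0.56 for *Hsp90aa1* (adjusted 0.0529). The mice farthest from the median *Hspb8* level were the second and the third Cre control females, at 17.8 and 16.5 CPM. Without both the r was 0.52 with *Hspa8*, 0.50 with *Hspa5*, 0.56 with *Hsp90aa1*, 0.57 with *Dnajb1* and 0.50 with *Hspb1*, and these 5 passed.

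Within the series of mice the relations were uneven. In the 12 Egr1f mice *Hspb8* passed with 6 of 9 members, with r = 0.87 for *Hsp90aa1* (permutation adjusted p = 0.00243) and 0.83 for *Dnajb1* (adjusted 0.00423). In the 12 Egr1wt mice none passed, the r was 0.67 with *Hspa8* and 0.65 with *Hspa5*, and the lowest permutation adjusted p was 0.0996. As deviations from group means *Hspb8* had an r of 0.81 with *Hsp90aa1* (permutation adjusted p = 0.00882) and 0.67 with *Hspa8* (adjusted 0.0176), while its r of 0.53 with *Hspa5* did not pass (adjusted 0.0715). Whether r differed between Egr1wt and Egr1f mice was not tested.

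**Figure D4:**
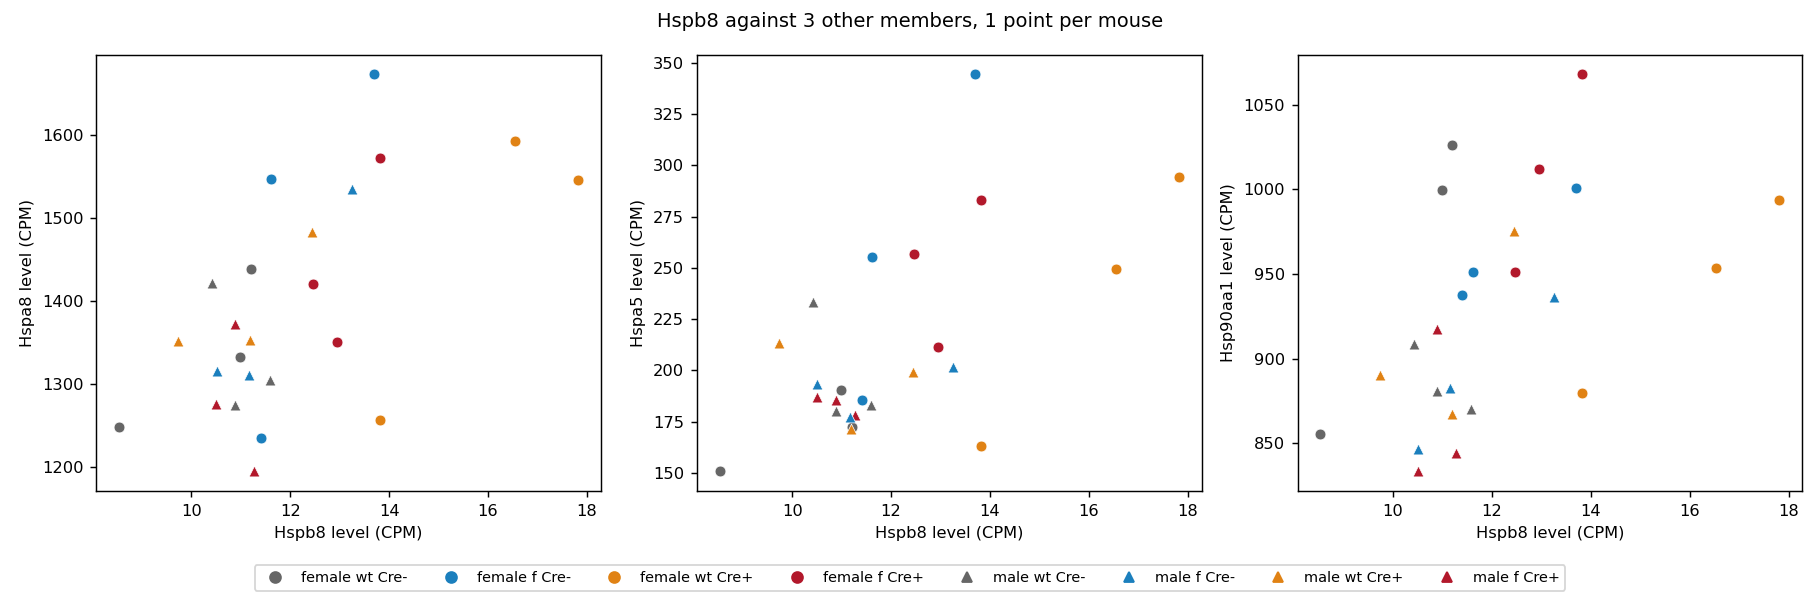
Level of *Hspb8* in CPM (x axis) against *Hspa8*, *Hspa5* and *Hsp90aa1* in CPM (y axis, 1 panel each), with 1 point per mouse, circles for females, triangles for males and colours for the genotypes. The second and the third female Cre control mice, at 17.8 and 16.5 CPM of *Hspb8*, stand to the right of all others.

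*Hspa5* and *Hspa8* varied with the chaperones of the endoplasmic reticulum, and not with these alone. Of 13 other genes of endoplasmic reticulum chaperones and folding enzymes, 12 had a positive correlation with *Hspa5* over 24 mice, with a median r of 0.77, against -0.006 over all genes kept. The cytosolic *Hspa8* stood close to it, with a median r of 0.76 and 12 of 13 positive, and *Hsph1* had 0.62 with 12 positive, *Hspb8* 0.49 with 13 positive and *Hspa1b* 0.39 with 12 positive. For *Hspa5* the highest were *Pdia4* with 0.92, *Pdia6* with 0.90 and *Pdia3* with 0.89, all disulfide isomerases, and *Manf* with 0.87 and the calcium-binding chaperone *Calr* with 0.86. The exception was *Dnajb9*, a J-protein of the reticulum, with -0.17. Without the 2 mice farthest from the median of *Hspa5* (344 and 295 CPM) its median r was 0.69, and it was 0.72 in Egr1wt and 0.82 in Egr1f mice. The mouse with the highest *Hspa5*, the second floxed control female, was also the highest of 24 for 9 of the 13 genes. With mitochondrial and TRiC (chaperonin) genes the median r was 0.63 for *Hspa8* and 0.42 for *Hspa5*, and with cytosolic co-chaperones 0.56 and 0.35. With heat shock factors it was 0.30 and 0.13. It was 0.09 and 0.11 with other small heat shock proteins. With other cytosolic HSP70, HSP90 and HSP110 genes it was 0.04 and 0.10. As deviations from group means *Hspb8* had 0.63 with mitochondrial and TRiC genes and 0.43 with those of the reticulum. All these values are given as a description, since the relation of *Hspa5* with the 13 genes was chosen after the data were seen.

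**Figure D5:**
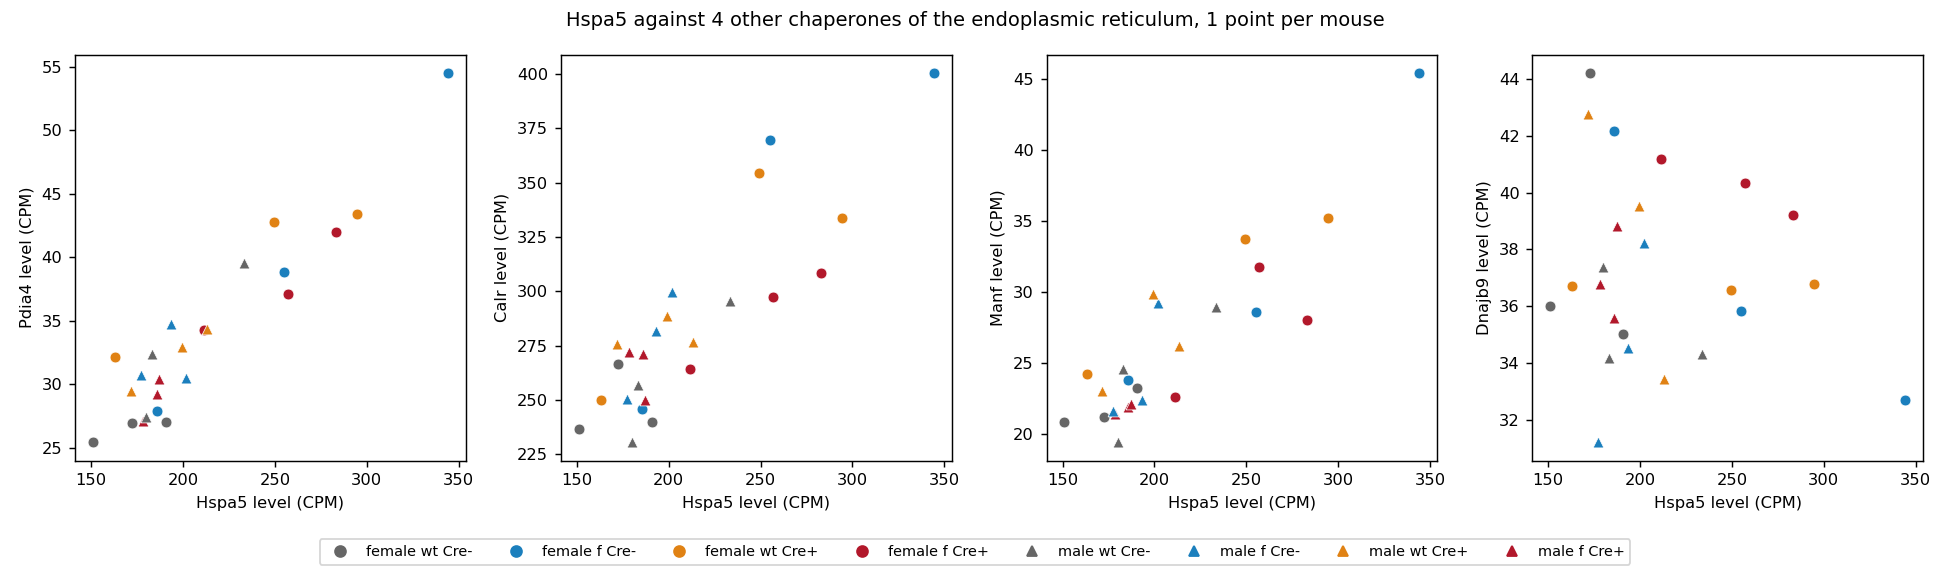
Level of *Hspa5* in CPM (x axis) against *Pdia4*, *Calr*, *Manf* and *Dnajb9* in CPM (y axis, 1 panel each), with 1 point per mouse, circles for females, triangles for males and colours for the genotypes. *Pdia4* climbs with *Hspa5* from 25.4 to 54.5 CPM across the 24 mice.

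The rest of the chaperone system gave 0 calls by edgeR in all 18 comparisons, over 65 further genes in 6 lists of which 62 to 64 were tested. The 13 genes of the endoplasmic reticulum had a median log2FC of 0.42 for the floxed allele alone in females, with 12 above 0, and of 0.28 for Nestin-Cre alone in females, with 12 above 0, beside medians of 0.00 and 0.02 over all genes. In males their medians were -0.03 and 0.00. Summed, the 13 genes stood at 1156 to 1233 CPM in the wild-type females, which both comparisons shared. Lowest, median and highest sums were 1206, 1476 and 1637 CPM in floxed control and 1220, 1436 and 1462 CPM in Cre control females. The lowest mouse of each group thus lay within the wild-type range. Of the 13 genes, 12 correlated positively with *Hspa5* over all mice, so counts above 0 are not counts of independent genes. The genes named from these lists, here and above, were chosen after their values were seen. The small heat shock protein *Cryab* had the lowest adjusted p among the small heat shock proteins in the Egr1cKO against the Cre control in females, 0.073 by edgeR. *Hspa12a*, of the listed HSP70 genes, had an edgeR adjusted p of 0.068 for the Egr1cKO against the floxed control in females and 0.078 against the Cre control, and 7 and 8 of the 9 genes of its list had a log2FC above 0. *Hsf1*, the main heat shock factor, had an edgeR adjusted p of 0.107 for the Egr1cKO against the floxed control in females, where 1 of the 4 genes of heat shock factors and their regulator *Hsbp1* had a log2FC above 0. For the Egr1cKO in females, 18.4% of all genes had an unadjusted edgeR p under 0.05 against the floxed control and 17.5% against the Cre control.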

How the data were processed

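Hippocampal RNA of 24 mice, 3 per sex and genotype as the labels give them, was sequenced by the study's authors in paired-end mode from non-stranded libraries, trimmed with Trim Galore and aligned to mm10 with STAR. The authors deposited whole-number counts per Ensembl gene, not normalized; the annotation used for counting is not given in the sources used here. Nothing in the labels pairs mice across groups. Symbols and exonic lengths came from GENCODE M21 and sequences from RefSeq.

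Counts were tested with edgeR 4.0.16 (quasi-likelihood, TMM scaling, minimum count of 10) in R 4.3.3, and DESeq2 1.42.0 was an alternative. The methods were tested on simulated data. Levels are CPM with TMM scaling over the 19742 genes kept in 24 mice, and log2 values carry a prior count of 2. Correlations used 100000 two-sided permutations in Python 3.11.15. All 10 members were named, with genes of the fixed lists where called, *Egr1* as the target and the 5 genes most like each of *Hspb8*, *Hsph1* and *Hspa5*, of which 1 is not reported here; tests were given mainly where an unadjusted p was under 0.05. The 10 members and all gene lists were chosen with earlier results of these data known. Total counts of 18025168 to 34955004 per mouse limit the precision of the lowest genes, and 3 mice per group limit that of every comparison.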

Additional observations from a re-analysis of the deposited data

How the results depend on the processing

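Of 310 alternatives over the 18 comparisons, 8 called a member, and the cause was not tested. Without a filter on low counts edgeR called 2 members for Nestin-Cre alone in females (*Hspb8* with an adjusted p of 0.0379, *Hspa5* with 0.00292), 2 for the floxed allele alone in females (*Hspb1* with 0.00447, *Hspa5* with 5.49e-07), 1 for the Egr1cKO against the Cre control in females (*Hspa1b* with 0.00484), and *Hspa5* as the 1 member for sex in the floxed control (0.0329), sex in the Egr1cKO (0.00532) and the sex term (0.00583). That setting raised the count of all genes called to 236, 220, 1301, 73, 296 and 111 in these comparisons. Leaving out 1 mouse gave 0 to 1 members for Nestin-Cre alone in females and 0 to 3 for the floxed allele alone in females. In the former it was *Hspa5* without the first Cre control female, with 33 genes called; in the latter *Hspb1*, *Hspa5* and *Hsph1* without the first floxed control female, with 1136 genes called.

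DESeq2 called 900 genes against 310 for the Egr1cKO against the Cre control in females, 738 against 50 for the Egr1cKO against the floxed control in females and 335 against 1 for the interaction. Over the 28 pairs of groups, the correlation of same-numbered mice had a median of -0.008 and in 0 pairs exceeded 0.1 for every number, so the numbers do not pair the mice. With a replicate block 0 members were called in all 18 comparisons, and 1 and 4 genes for the Egr1cKO against the Cre and the floxed control in females.

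Of the 9 relations of *Hspb8*, 3 passed; this became 5 without the 2 mice farthest from the median, 1 without the 6 Egr1cKO mice (*Hspa8*), 1 with the replicate block (*Hsp90aa1*) and 3 to 5 with 1 mouse left out, 5 without the first or without the second Cre control female. The r of *Hspb8* with *Bag3* turned to -0.11 as deviations from group means and to -0.15 with the replicate block. Of the 45 pairs, 14 passed as deviations from group means.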

Other observations

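By correlation of log2 CPM over 24 mice, given as values with no test, genes most like *Hspb8* included *Tmem159* (r = 0.73), *Tmem50b* (0.72), *Tspan33* (0.71) and *2810039B14Rik* (0.71), none of these a listed chaperone. The genes most like *Hspa5* were *Pdia4* (0.92), *Pdia6* (0.90), the transcription factor of the unfolded protein response *Xbp1* (0.89), *Pdia3* (0.89) and *Manf* (0.87). Those most like *Hsph1* were the postsynaptic scaffold *Homer1* (0.87), the lectin of the endoplasmic reticulum *Mlec* (0.84), *Gpt2* (0.83), *Pnmal1* (0.81) and the activin subunit *Inhba* (0.81). Over the 10 members, r lay between -0.33 and 0.09 with *Egr1* and between -0.21 and 0.27 with library totals.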
